A study of Saccharomyces cerevisiae with 6 samples.

Results

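The small nucleolar RNAs (snoRNAs) of budding yeast were followed through 1 h of auxin-induced depletion of the kinase Rio1. Of 7445 features in the deposited count table, 76 carried a snoRNA name, meaning snR with digits and an optional a or b, without the spliceosomal RNAs. The 37 members were selected on their summed counts, at least 10 over the 6 cultures, and comprised 20 C/D and 17 H/ACA snoRNAs. The members nearest this limit were *snR75*, with 10 counts, and, on the other side, *snR40* and *snR79*, with 7 counts each. All cultures were of 1 *RIO1-AID* strain of W303 background, which carries the degron-tagged *RIO1* marked with KanMX4 and the plant F-box protein OsTIR1, tagged with 9myc, driven from the *ADH1* promoter and marked with *URA3*. They grew in YPDA at 25 °C, in mid-exponential phase, and were given a mock (3 cultures) or 500 µM auxin (3 cultures). The labels name only this dose, while the paper's methods describe it first and a lower one for the rest of the hour. No auxin-treated strain without the degron was analysed here, so an effect of auxin itself and one of Rio1 loss cannot be told apart. In bulk RNA, fewer cells of a kind and less RNA per cell cannot be told apart either.

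snoRNAs act in the nucleolus as guides that base-pair with precursor ribosomal RNA. C/D snoRNAs bind Nop1, Nop56, Nop58 and Snu13, and direct 2′-O-methylation of the base that pairs a fixed distance upstream of a D box. H/ACA snoRNAs bind Cbf5, Nhp2, Nop10 and Gar1, and direct pseudouridylation, and a few snoRNAs of either class are needed for pre-rRNA cleavage. In yeast most are made from genes of their own, some from polycistronic transcripts cut by the endonuclease Rnt1, and a few from introns of protein-coding genes.

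The 7 C/D snoRNAs changed upward upon auxin treatment are shown as RefSeq gives them for assembly R64, 5′ to 3′. Among these 7, *snR56* is shown because the rule that defines the set names it. Its listing here is therefore no support for a change of *snR56*. Also shown is *snR57*, which is compared with *snR61* of its cluster. Capitals mark a stretch of at least 10 Watson-Crick pairs with 18S or 25S rRNA, placed so that the base paired with the fifth base before a CTGA box is a methylated position named in the annotation. The positions are G1428 of 18S rRNA for *snR56*, U2347, U1888 and A1133 of 25S rRNA for *snR65*, *snR62* and *snR61*, and U2921 of 25S and A420 of 18S rRNA for *snR52*. No such stretch was found in *snR71*, *snR48* and *snR57*.
snR71: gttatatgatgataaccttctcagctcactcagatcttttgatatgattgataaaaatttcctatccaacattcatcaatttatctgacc
snR56: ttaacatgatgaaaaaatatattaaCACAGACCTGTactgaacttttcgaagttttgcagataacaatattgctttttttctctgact
snR65: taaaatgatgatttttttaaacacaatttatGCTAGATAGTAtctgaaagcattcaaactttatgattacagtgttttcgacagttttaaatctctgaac
snR48: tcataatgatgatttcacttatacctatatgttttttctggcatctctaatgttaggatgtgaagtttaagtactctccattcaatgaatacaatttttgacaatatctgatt
snR62: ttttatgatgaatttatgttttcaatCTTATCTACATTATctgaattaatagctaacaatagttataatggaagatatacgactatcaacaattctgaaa
snR52: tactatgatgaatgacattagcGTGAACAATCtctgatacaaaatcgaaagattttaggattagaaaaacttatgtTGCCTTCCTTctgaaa
snR61: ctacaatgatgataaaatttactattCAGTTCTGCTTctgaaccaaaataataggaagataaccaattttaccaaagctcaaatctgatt
snR57: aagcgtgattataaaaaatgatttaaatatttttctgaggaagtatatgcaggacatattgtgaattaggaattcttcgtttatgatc

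These 8 genes are 88 to 113 bases long, and all but *snR57* have ATGATGA close to their start. Across the 47 C/D genes, a C box (ATGATGA or GTGATGA, on the sense strand) within the first 25 bases and a D box (CTGA) within the last 25 occurred together in 33 (70.2%), and in 15 of the 20 C/D members. None of the 29 H/ACA genes held both. ACA lay exactly 3 bases before the end of 14 of the 29 H/ACA genes (48.3%) and of 3 of the 47 C/D genes (6.4%). The C/D members were 82 to 462 bases long and the H/ACA members 171 to 1004, so class and length went together.

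Libraries had 110119744 to 125303818 counts. These totals are several times the mapped read pairs per sample that the paper states. Whether each count is a separate read pair was not tested, which limits the p-values. Of 6397 features that passed a filter on low counts, 2462 (38.5%) were higher and 2465 (38.5%) lower at an adjusted p of at most 0.05 by edgeR's quasi-likelihood test, and 494 (7.72%) were also at least 2-fold up and 163 (2.55%) at least 2-fold down, which is called changed here. snoRNAs took 0.861% to 0.882% of the counts in mock-treated and 0.818% to 0.834% in auxin-treated cultures. *RIO1* mRNA, which does not report on a degron that acts on the protein, was higher by 0.93 on the log2 scale.

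Many snoRNA genes had no value to compare. 32 of the 76 were at 0 in all 6 cultures, 20 of class C/D and 12 of class H/ACA, and another 7, all C/D, had 1 to 9 counts. *snR17a* (U3), *snR128* (U14), *snR30* and *snR4* were among those listed at 0, as were *SCR1* and *NME1*, RNAs of the signal recognition particle and of RNase MRP. Every growing cell uses these RNAs, so a 0 is only a listing. Of 42 genes nested within an exon on the same strand 41 were at 0, against 0 of 8 nested on the opposite strand. The table also holds 319 noncoding features with ENSRNA identifiers, 303 of them at 0, whose positions were not used here, and whether they overlap the snoRNAs at 0 was not tested.

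Of the 37 members, 33 passed the filter. 15 were higher (38.5% of all features were) and 11 lower (38.5%), 8 were changed upward (7.72%) and 0 downward (2.55%). *snR56*, which the rule that defines the set names, is included in these counts and in the C/D values. They are therefore no support for a change of *snR56*. *snR10*, which passed the filter only through the auxin-treated cultures, is also counted, as higher and changed upward. With at least 10 counts required in every culture, which leaves *snR10* out, 14 of 32 were higher, 10 lower and 7 changed upward. The 3 auxin-treated cultures all lay above the 3 mock-treated ones for 15 members (39.3% of all features) and all below for 9 (39.3%). By class, 13 of the 18 tested C/D snoRNAs were higher and 0 lower, with a median log2 fold change of 0.82. Of the 15 tested H/ACA snoRNAs 2 were higher and 11 lower, with a median of -0.34, beside a median over all features of 0.00013. Scaling by total counts alone, which moves the median of all features to 0.25, gave 18 higher and 6 lower snoRNAs and an H/ACA median of -0.096, and *snR5*, *snR37*, *snR80*, *snR85* and *snR191* were then no longer called lower. The untested members had few counts: *snR67* had 8, 0 and 5 in mock-treated and 10, 10 and 5 in auxin-treated cultures, *snR75*, *snR81* and *snR9* no more than 13 in any culture.

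**Figure D1:**
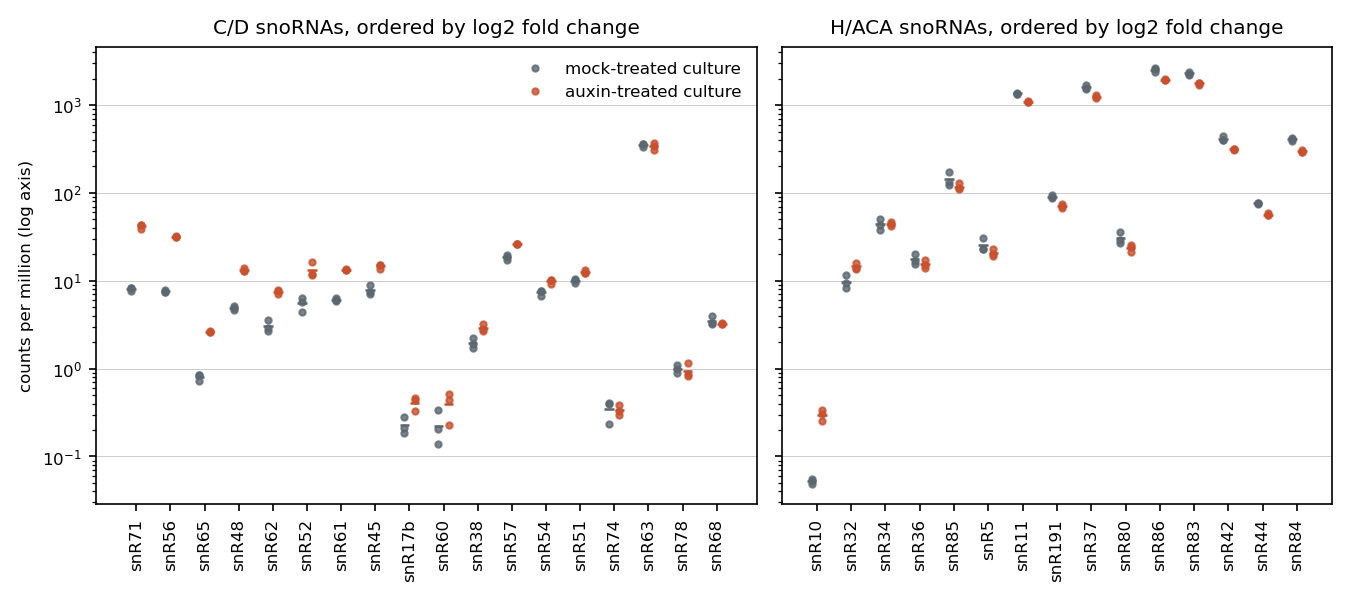
Levels in CPM of the 33 tested snoRNAs in each culture (log axis; points are cultures, short lines the mean of 3), by class and in order of the log2 fold change. Auxin-treated cultures sit above mock-treated ones for 13 C/D snoRNAs, and below them for 9 H/ACA snoRNAs.

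*snR71*, a methylation guide for 25S rRNA on chromosome VIII (411228 to 411317), had the largest rise among C/D snoRNAs. Its level was 8.33, 8.35 and 7.62 CPM (counts per 1000000 of the scaled total) in mock-treated and 42.6, 43.5 and 38.6 CPM in auxin-treated cultures. The groups lay far apart, and the log2 fold change was 2.36 ± 0.06 (SE, adjusted p = 1.45e-09, edgeR).

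*snR56*, which guides methylation of 18S rRNA at G1428 and lies on chromosome II (88190 to 88277), is named in the rule that defines the set and is described without a test. It had 7.95, 7.54 and 7.51 CPM in mock-treated and 32.1, 31.4 and 31.6 CPM in auxin-treated cultures. The means were 7.67 ± 0.24 and 31.7 ± 0.38 CPM (SD, n = 3), a 4.13-fold difference between groups that did not overlap.

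*snR65*, a 25S rRNA guide, was scarce, with 0.844, 0.726 and 0.845 CPM in mock-treated cultures and 2.66, 2.61 and 2.64 CPM upon Rio1 depletion. *snR48*, which guides methylation of 25S rRNA, had 4.92, 5.17 and 4.62 CPM against 13.0, 13.0 and 13.9 CPM. In both the groups were clearly separate, with log2 fold changes of 1.71 ± 0.10 and 1.44 ± 0.06 (SE; adjusted p = 2.68e-07 and 2.24e-08, edgeR).

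*snR62*, another 25S rRNA guide, rose from 3.04 ± 0.49 to 7.50 ± 0.41 CPM (SD, n = 3). *snR52*, which is transcribed by RNA polymerase III unlike other yeast snoRNAs, had 4.46, 5.72 and 6.37 CPM in mock-treated and 11.7, 11.9 and 16.4 CPM in auxin-treated cultures. One auxin-treated culture stood above the other two, and all lay above the mock-treated ones. The log2 fold changes were 1.31 ± 0.10 for *snR62* and 1.27 ± 0.15 for *snR52* (SE; adjusted p = 2.08e-06 and 4.15e-05, edgeR).

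*snR45*, which guides acetylation of 18S rRNA by Kre33, rose from 7.88 ± 0.95 to 14.7 ± 0.79 CPM (SD, n = 3; log2 fold change 0.90, adjusted p = 4.71e-06, edgeR). *snR17b* is the second gene for U3, the snoRNA of the small subunit processome. Its level, 0.228 ± 0.051 against 0.410 ± 0.074 CPM, was the lowest per length of the 18 tested C/D snoRNAs (0.494 and 0.887 CPM per kb), and reads that it shares with *snR17a* cannot be assigned to one gene. The 0.85 difference on the log2 scale (adjusted p = 0.00708, edgeR) rests on 21 to 59 counts a culture.

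5 C/D snoRNAs did not pass the test. *snR63*, the most abundant tested C/D snoRNA per length (1384 CPM per kb in mock-treated cultures), had 330, 365 and 364 CPM in mock-treated and 344, 312 and 366 CPM in auxin-treated cultures. The groups overlapped, with a log2 difference of -0.05 ± 0.06 (SE). *snR68*, *snR78* and *snR74* had log2 differences of -0.10, -0.08 and -0.02, also with overlapping cultures. The summed C/D level was 440 ± 19.4 CPM in mock-treated and 536 ± 27.6 CPM in auxin-treated cultures (SD, n = 3). Without *snR63* it was 87.2 ± 0.76 and 195 ± 0.65 CPM. Much of this rise lay in single members, as mean levels went from 8.10 to 41.6 CPM for *snR71* and from 7.67 to 31.7 CPM for *snR56*. The sum therefore does not describe the class as a whole.

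The H/ACA snoRNAs moved less and mostly downward. *snR86*, the longest at 1004 bases, had 2541, 2657 and 2349 CPM in mock-treated and 1994, 1949 and 1917 CPM in auxin-treated cultures. *snR83*, an 18S rRNA guide and the most abundant H/ACA snoRNA per length (7512 CPM per kb in mock-treated cultures), had 2221, 2286 and 2390 CPM against 1694, 1807 and 1782 CPM. Their groups did not overlap, and they fell by 0.37 and 0.38 on the log2 scale (adjusted p = 3.51e-05 and 7.06e-06, edgeR).

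The 3 lowest log2 fold changes belonged to *snR84*, *snR44* and *snR42*, pseudouridylation guides, at -0.46 ± 0.03, -0.43 ± 0.03 and -0.39 ± 0.04 (SE). *snR84* had 392, 422 and 413 CPM in mock-treated and 305, 293 and 294 CPM in auxin-treated cultures. *snR11* and *snR37*, the latter also with a structural part in early pre-60S particles, fell by 0.32 and 0.36. *snR5* and *snR85* passed the test at adjusted p = 0.0364 and 0.0403 (edgeR) although their groups overlapped, and either call was lost when single cultures were left out.

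*snR32*, a guide for 25S rRNA, was the only H/ACA snoRNA with a mean of at least 100 counts that rose. It had 8.33, 9.46 and 11.5 CPM in mock-treated and 13.7, 14.1 and 16.0 CPM in auxin-treated cultures. All auxin-treated cultures lay above the mock-treated ones, with a log2 fold change of 0.58 ± 0.11 (SE, adjusted p = 0.000762, edgeR). *snR34* and *snR36* had log2 differences of 0.0069 and -0.20 and did not pass the test.

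The class difference ran together with abundance. The tested C/D snoRNAs had a median level of 8.87 CPM and the H/ACA snoRNAs 81.1 CPM. The C/D members had a median length of 93.5 bases, below the read length of 100 bases in the paper, and the H/ACA members 211. Whether counts measure abundance alike in the classes was not tested. Among all features, 63.8% of the 646 below 1 CPM were higher and 11.3% of the 160 above 1000 CPM, with median log2 fold changes of 0.92 and -0.41. Below 1 CPM, 1 of 4 C/D snoRNAs was higher, and from 1 to 10 CPM 7 of 8, beside 49.0% of features there. All 3 H/ACA snoRNAs from 100 to 1000 CPM and all 4 above 1000 CPM were lower, beside 49.1% and 81.9% of features. Between 10 and 100 CPM, where both classes had members, 5 of 5 C/D snoRNAs were higher, and of 7 H/ACA snoRNAs 1 was higher and 4 lower, while 1006 of 3052 features were higher and 1278 lower. Spearman's rho between the log2 fold change and the mock-treated level was -0.75 over the 33 snoRNAs, -0.65 over the 15 H/ACA and 0.02 over the 18 C/D snoRNAs, values that share libraries and are given as a description. With gene length in place of level, rho was -0.58 over the 33 snoRNAs, -0.58 over the H/ACA and -0.02 over the C/D snoRNAs. The parts of abundance and of length in the class difference were not tested.

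**Figure D2:**
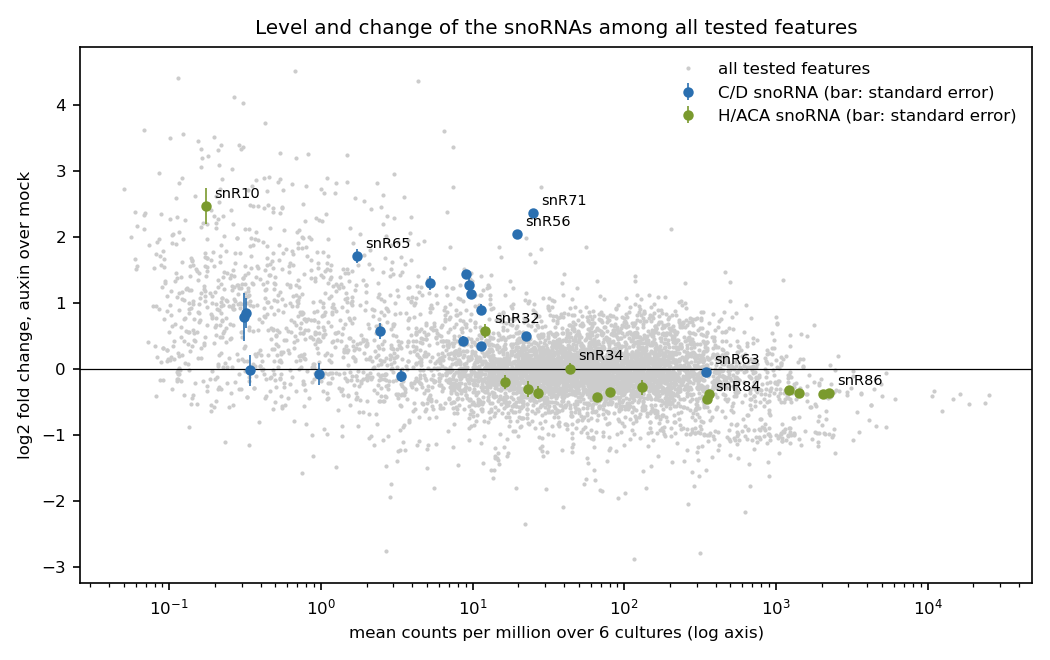
Log2 fold change (auxin over mock, with standard error) against the mean level in CPM (log axis) for all 6397 tested features in grey, C/D snoRNAs in blue and H/ACA snoRNAs in green. *snR71* and *snR56* lie above 2 at 10 to 100 CPM, and the H/ACA snoRNAs above 100 CPM lie between -0.46 and -0.28.

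2 members overlapped another gene on the same strand. *snR10*, an H/ACA snoRNA needed for pre-rRNA cleavage, shares 216 of its 245 bases with the open reading frame *YGL088W*, and *snR60*, a 25S rRNA guide, shares 49 of 104 with *YJL047C-A*. They are shown with the free stretch in capitals, because only read pairs that avoid the other gene are counted for them.
snR10: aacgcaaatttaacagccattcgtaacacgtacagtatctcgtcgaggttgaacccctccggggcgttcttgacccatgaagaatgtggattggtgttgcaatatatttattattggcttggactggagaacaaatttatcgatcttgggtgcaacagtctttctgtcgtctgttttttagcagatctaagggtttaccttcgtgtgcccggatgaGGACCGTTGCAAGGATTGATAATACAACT
snR60: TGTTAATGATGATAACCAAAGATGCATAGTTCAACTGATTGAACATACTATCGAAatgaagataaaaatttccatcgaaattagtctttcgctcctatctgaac

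*snR10* had 6, 6 and 5 counts in mock-treated and 33, 38 and 44 counts in auxin-treated cultures, from the 29 free bases at its 3′ end and what lies beyond. The groups did not overlap, and the log2 difference was 2.47 ± 0.28 (SE). *snR10* passed the filter on low counts only through the auxin-treated cultures and is therefore described without a test. The same holds for *YGL088W*, with 0.034 ± 0.015 CPM in mock-treated and 0.137 ± 0.038 CPM in auxin-treated cultures (SD, n = 3), a log2 difference of 1.97. The counts of *snR10* do not report on the whole snoRNA. *snR60* had 36, 23 and 14 counts against 30, 64 and 57, which overlapped (log2 difference 0.79, adjusted p = 0.0741, edgeR), and *YJL047C-A* went from 1.32 ± 0.073 to 13.6 ± 0.56 CPM (SD, n = 3).

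By arrangement, 4 of 8 intronic genes, 7 of 17 in polycistronic clusters and 26 of 51 single genes were members. Of the 4 intronic members 2 were higher and 2 lower, beside 38.5% and 38.5% of all features. *snR44* fell by 0.43 while its host *RPS22B*, a small subunit ribosomal protein gene, fell by 1.01. *snR191* fell by 0.34 while *NOG2*, a GTPase of 60S assembly, rose by 0.33. *snR38* and *snR54* rose by 0.57 and 0.43, and their hosts *TEF4* (elongation factor) and *IMD4* (IMP dehydrogenase) had differences of 0.06 and 0.04 that did not pass the test.

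The ratio of *snR191* to *NOG2* was 0.433 ± 0.0040 in mock-treated and 0.271 ± 0.0069 in auxin-treated cultures, and that of *snR44* to *RPS22B* 0.306 ± 0.015 and 0.459 ± 0.0099 (SD, n = 3). In all 4 pairs the ratios of the groups did not overlap, with a two-sided p of 0.1 in an exact permutation test, also after Benjamini-Hochberg adjustment over the 4, which is the smallest that 3 against 3 cultures allow. Such separation was common in these cultures, as the levels of 39.3% of all features lay wholly above and of 39.3% wholly below. The hosts of the intronic snoRNAs at 0 were all lower, as were 38.5% of all features and 81.9% of those above 1000 CPM. Their log2 fold changes were -0.23 for *EFB1*, -0.90 for *RPL7A*, -1.17 for *ASC1* and -1.55 for *RPL7B*. All but *RPL7B* had means above 1000 CPM.

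**Figure D3:**
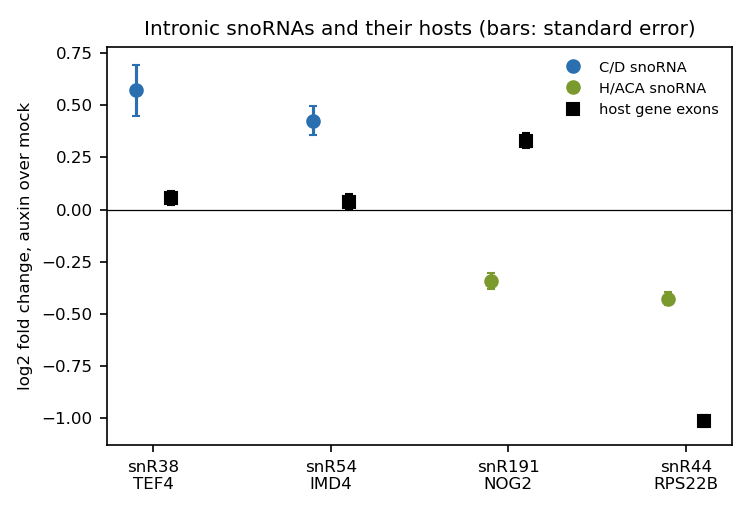
Log2 fold change (auxin over mock, with standard error) of the 4 intronic snoRNAs (circles) and of their host genes (squares). *snR191* and *NOG2* lie on opposite sides of 0, and *snR44* lies above *RPS22B*.

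The clusters were covered in part. *snR61* and *snR57*, methylation guides for 25S and 18S rRNA from 1 cluster, both rose, by 1.14 ± 0.05 and 0.50 ± 0.05 (SE; adjusted p = 3.03e-08 and 8.33e-06, edgeR), and *snR55* between them was not a member. *snR61* had 6.05, 5.90 and 6.35 CPM against 13.2, 13.4 and 13.6 CPM, and *snR57* 19.8, 18.8 and 17.3 CPM against 26.3, 26.4 and 26.3 CPM. Their ratio was 0.329 ± 0.034 in mock-treated and 0.509 ± 0.0085 in auxin-treated cultures (SD, n = 3). *snR51*, the last of the *snR41* cluster, rose by 0.34 (adjusted p = 0.000429, edgeR), and *snR78* and *snR74*, of the cluster of 7 on chromosome XIII, did not pass the test.

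Of 21 tested features that start within 500 bp downstream of a snoRNA on the same strand, 7 (33.3%) were higher and 11 (52.4%) lower, with a median log2 fold change of -0.11, beside 38.5% and 38.5% of all features. *FLX1*, a mitochondrial FAD transporter gene 148 bp downstream of *snR68*, rose by 1.75, whereas *snR68* itself differed by -0.10. *YDR042C*, 398 bp downstream of *snR47*, a snoRNA listed at 0, rose by 2.76. *FLX1* and *YDR042C* were the 2 downstream features changed upward. The 1 changed downward was *DFR1*, 309 bp downstream of *snR17a*, also listed at 0, with a log2 fold change of -1.33. Of 19 features upstream, 7 (36.8%) were higher and 8 (42.1%) lower, near the 38.5% of all features in either direction. Counts do not tell a mature snoRNA from an extended transcript, so the part of either was not tested.

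The mRNAs of proteins that make up, assemble and process snoRNPs were read from a list of 25 genes. All 25 were higher (38.5% of all features were), and none was lower under any other scaling, while 24 passed with factors from snoRNAs alone. By group median the core proteins rose least, at 0.16 (C/D) and 0.23 (H/ACA) against 0.57 for assembly and 0.60 for processing. The C/D core rose by 0.07 (*SNU13*) to 0.20 (*NOP56*) and the H/ACA core by 0.11 (*CBF5*) to 0.26 (*GAR1*). The assembly factor *TAH1* rose by 0.25, less than *GAR1*. Among 9 assembly factors, *BCD1*, needed for C/D snoRNA stability, rose from 29.3 ± 1.0 to 68.5 ± 1.3 CPM, and *NAF1*, for H/ACA assembly, from 116 ± 4.7 to 216 ± 6.3 CPM (SD, n = 3). Among 8 processing factors, *NRD1*, which ends snoRNA transcription with Nab3 and Sen1, rose by 1.32 and *RNT1* by 0.82, against 0.48 for *NAB3* and 0.40 for *SEN1*.

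**Figure D4:**
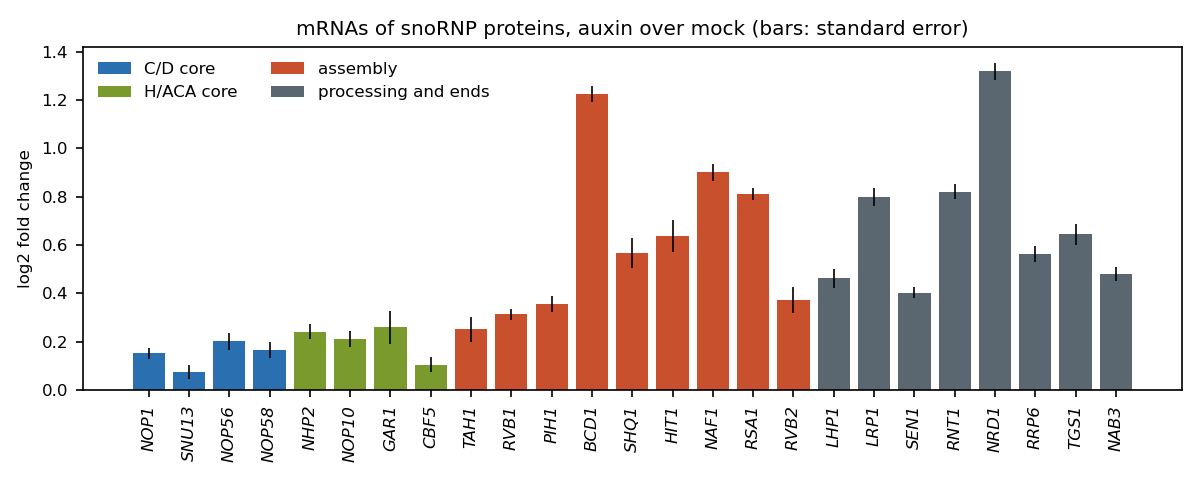
Log2 fold change (auxin over mock; bars with standard error) of 25 snoRNP genes by role. All are above 0, from 0.07 for *SNU13* to 1.32 for *NRD1*.

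Of the other stable noncoding RNAs looked up, 3 were tested and lower, as were 38.5% of all features. The log2 fold changes were -0.22 for the spliceosomal *LSR1* (U2), -0.31 for *snR19* (U1) and -0.12 for the telomerase RNA *TLC1*. Above 1000 CPM, where *LSR1* lies, 81.9% of features were lower, with a median of -0.41. From 100 to 1000 CPM, where *snR19* and *TLC1* lie, 49.1% were lower. The U5 form *snR7-L* had 4, 5 and 7 counts in mock-treated and 6, 4 and 5 in auxin-treated cultures and was not tested.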

How the data were processed

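RNA of 3 mock- and 3 auxin-treated cultures was depleted of rRNA and sequenced as strand-specific paired-end libraries. The authors trimmed the reads with Trimmomatic, aligned them with STAR to R64 and deposited raw counts per feature, without normalization; STAR and annotation versions are not given in the sources used here. STAR counts only uniquely mapped pairs that touch a single feature. Columns were assigned by the digit (repeat) and the letter a (auxin) in their names. Nothing in the labels beyond "biological repeat" says how the cultures were separated, so p-values measure the spread between these cultures.

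Deposited counts of all features were fitted in edgeR 4.0.16 under R 4.3.3 by the quasi-likelihood test, after TMM scaling and the filterByExpr filter, with treatment as sole term and Benjamini-Hochberg adjustment over 6397 features. Higher or lower means an adjusted p of at most 0.05, and changed also a log2 fold change of 1 or more in size. CPM use TMM-scaled totals. The procedure was tested on simulated data. DESeq2 1.42.0, other scalings and filters, a replicate block and leaving out each culture were alternatives. Ratios and tables used Python 3.11.15.

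Members and gene lists were chosen with earlier results of these data known. Named were *snR56*, the extremes of each class with a mean of at least 100 counts, special-role, intronic, clustered and overlapping snoRNAs, the most and least abundant per length, hosts, neighbours within 500 bp and the snoRNP list. Sequences and box positions came from RefSeq R64, the build of the counts. The search for rRNA guides was run in 3 settings, and the one shown was chosen after their hits had been compared with the annotated positions. A minimum of 10 Watson-Crick pairs gave 29 stretches, 28 at annotated positions. A minimum of 9 pairs gave 32, with 28 annotated, and allowing 1 G-U pair at this minimum gave 42, with 29 annotated. Their agreement with the annotation is therefore no independent support.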

Additional observations from a re-analysis of the deposited data

How the results depend on the processing

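No called snoRNA turned its direction under the alternatives run. The counts of 15 higher, 11 lower and 8 changed snoRNAs stayed within 1.5 times under RLE scaling, TMM factors without snoRNAs, DESeq2, both filters and the replicate block. Scaling by total counts alone moved the median of all features by 0.25 on the log2 scale, and with it the number of lower snoRNAs to 6, the C/D median to 1.07 and the H/ACA median to -0.096. Relative to that shift the classes stood as before. TMM factors from the snoRNAs alone gave an H/ACA median of -0.28. With single cultures left out, 15 to 16 snoRNAs were higher, 9 to 12 lower and 8 to 9 changed upward, and the C/D median was 0.66 to 0.93 and the H/ACA median -0.38 to -0.31. Same-numbered cultures correlated in their deviations at 0.162, -0.0295 and 0.245, and differently numbered ones at -0.259 to 0.133. These values do not settle whether the numbers pair the cultures, and the main fit did not pair them. The replicate block gave 15 higher, 12 lower and 8 changed snoRNAs, with medians of 0.82 and -0.34. Depth limits *snR10*, *snR17b*, *snR60* and *snR74*, which had at most 64 counts in any culture.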
